A study of Homo sapiens with 8 samples.

Results

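Exon skipping was described for 8 integrin and extracellular matrix genes: FN1 (fibronectin), TNC (tenascin-C), the integrin subunits ITGA3, ITGA6, ITGB1 and ITGB4, COL6A3 (a collagen VI chain) and FBLN2 (fibulin-2). Every skipped-exon event listed under these gene symbols was taken, which gave 163 events over 109 exons, of 123924 events in 13437 genes in all. An event is an exon with its flanking exons, and an exon can be listed in several events that share reads. Of the 163 events, 92 were listed for MCF10A, 120 for HMLE TWIST and 49 for both.

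RNA was sequenced from cultures of MCF10A, a non-tumorigenic human breast epithelial line, and of HMLE TWIST, immortalized human breast epithelial cells that overexpress TWIST from an integrated retroviral pBabe vector. Cells of each line received the solvent DMSO or 10 µM emetine, an alkaloid known to block protein synthesis, for 24 hours, with 2 biological replicates in each of the 4 groups. The series title names a screen for regulators of alternative splicing that act through RNA G-quadruplexes. Each line is a single model, so a difference between the lines covers their origin as well as TWIST. The tables do not label their groups, and which is DMSO and which is emetine was taken from the order in each table's name.

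Integrins are paired alpha and beta subunits that hold cells to matrix proteins such as fibronectin and laminins. Their short cytoplasmic ends contact the cytoskeleton, and some subunits have alternative ends made by exon skipping. Fibronectin and tenascin-C are built of repeated domains, and whole repeats can be left out of the mRNA. The extra domain exons of fibronectin are known from wound healing, embryonic tissue and tumour stroma, and loss of epithelial character is known to change the splicing of several of these genes.

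The line labels matched the marker genes as far as the tables show them. The best covered event of a gene was chosen separately for each line, so the lines can be set side by side on different exons. VIM, for example, had 1 listed event in MCF10A and 18 in HMLE TWIST. In untreated MCF10A the best covered event of CDH1 (E-cadherin) had 1362 and 1563 junction reads and that of ESRP1, an epithelial splicing factor, 1046 and 943, against 2 and 0, and 0 and 2, in untreated HMLE TWIST. KRT5, KRT14, OCLN and CLDN1 had events only in the MCF10A table, and EPCAM, KRT18 and GRHL2 in neither. VIM (vimentin) had 24923 and 28296 reads in untreated MCF10A and 190386 and 181765 in untreated HMLE TWIST. TWIST1 had 14 and 5 against 126 and 168, junction reads that do not measure its overexpression. The markers SNAI2 and CDH11 had no listed event in either line. Of markers of other cell types, PTPRC had at most 2 reads in a library, and PECAM1 and VWF were not listed. Summed over all events, the libraries held 78412292 to 83483642 junction reads in MCF10A and 90031966 to 91259363 in HMLE TWIST, where a read counts once in each event it supports.

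The reads behind the events differed widely among the 8 genes. The best covered FN1 event, which was not the same exon in both lines, had 292 and 303 reads in untreated MCF10A and 94246 and 83048 in untreated HMLE TWIST. ITGB4 went the other way, with 7942 and 8132 reads in untreated MCF10A and 14 and 21 in untreated HMLE TWIST. Under emetine the reads of the best covered event stood at 0.3 and 0.267 of the DMSO level for ITGA3, at 0.278 and 0.181 for ITGA6 and at 0.433 and 0.427 for ITGB1, in MCF10A and HMLE TWIST in that order. TNC reads in MCF10A stood at 54 and 61 with DMSO and 2021 and 1775 with emetine, a ratio of 33, whereas in HMLE TWIST they stood at 255 and 235 and then 357 and 322. These ratios are of junction reads, were not tested, and in bulk RNA fewer cells that carry a transcript and less of it per cell cannot be told apart.

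**Figure D1:**
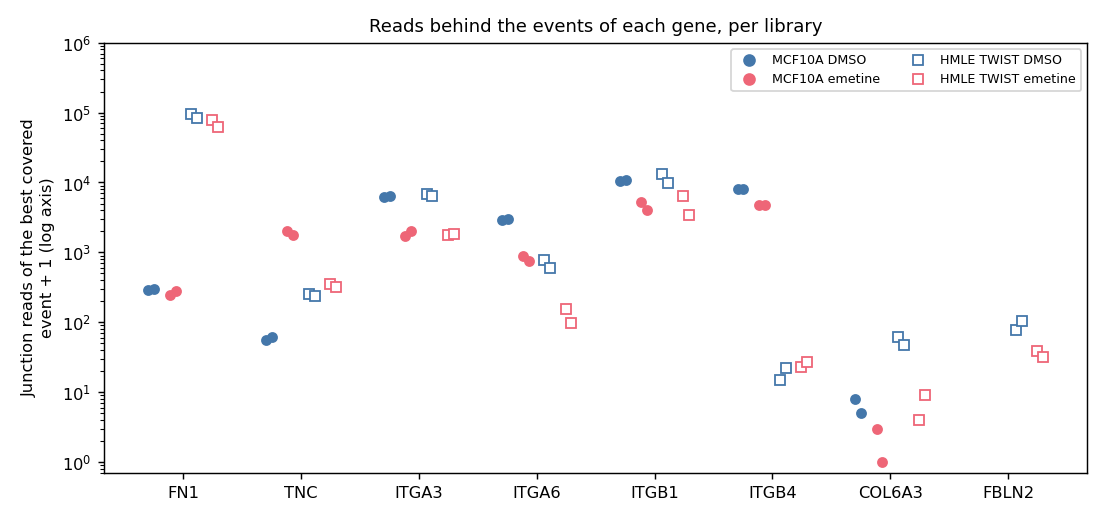
Junction reads of the best covered event of each gene plus 1 (log axis) in each library, with circles for MCF10A, squares for HMLE TWIST, blue for DMSO and red for emetine. FN1 stands highest in HMLE TWIST, ITGB4 is covered almost entirely in MCF10A, and TNC in MCF10A lies between 54 and 61 reads with DMSO and between 1775 and 2021 with emetine.

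The inclusion level is the share of transcripts that keep the exon, from 0 to 1, computed from junction reads corrected for the number of junctions. An event was tested where every library had at least 20 reads and the rarer form at least 10 reads over the fit. It is called changed where the adjusted p of a quasi-binomial model is under 0.05 and the mean level moved by at least 0.1. In MCF10A, 37 of the 92 member events could be tested and 3 changed under emetine, 1 higher and 2 lower, against a background of 13.0% of all tested events changed, 7.90% higher and 5.15% lower. In HMLE TWIST, 45 of 120 could be tested and 3 changed, 1 higher and 2 lower, against a background of 14.0%, 6.11% higher and 7.91% lower. The members' shares were 8.11% and 6.67%. They rest on 3 changed events in each line, and their difference from the backgrounds was not tested. limma called 3 of the 37 and 2 of the 45, against 7.88% and 9.94% of all tested events. With no size threshold, 14 of the 37 and 18 of the 45 had an adjusted p under 0.05, against 33.4% and 35.6%. Most of their tested events hardly moved: 27 of the 37 and 34 of the 45 shifted by less than 0.02, against 45.7% and 44.3% of all tested events. The median absolute change of the members was 0.00734 in MCF10A and 0.00274 in HMLE TWIST, beside 0.0239 and 0.0255 over all tested events. Filtering on the rarer form leaves untested the events with fewer than 10 reads of it. Deeply read genes pass this filter even with exons that were nearly always kept or skipped. In HMLE TWIST, FN1 gave 21 of the 45 tested events and 17 of the 34 small shifts, with a median absolute change of 0.000162. In MCF10A, ITGB1 and ITGB4 gave 9 and 12 of the 27 small shifts.

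**Figure D2:**
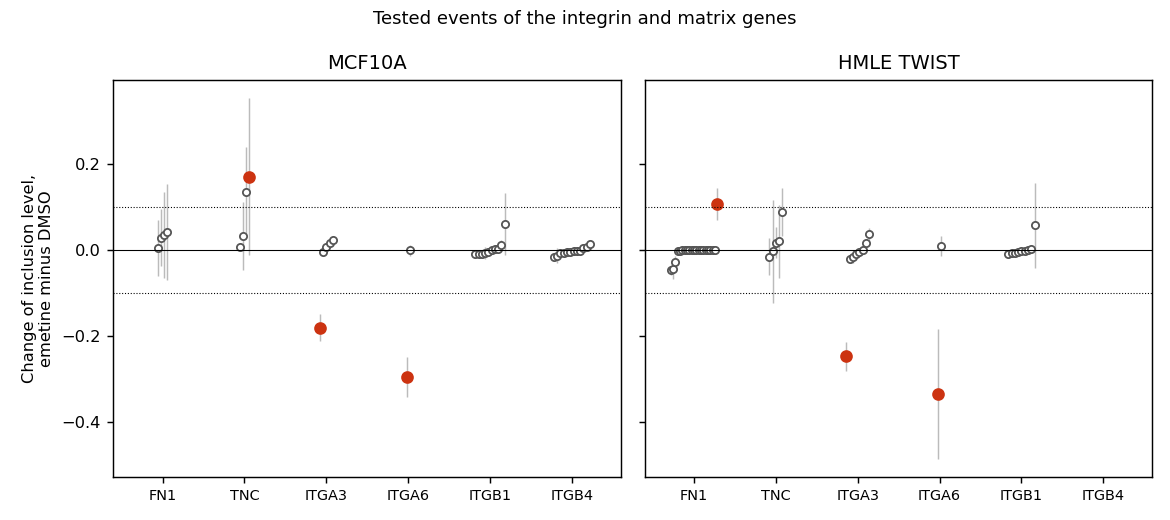
Change of inclusion level under emetine (vertical axis, emetine minus DMSO) for every tested event of the members, by gene and line, with 95% intervals from the model. Filled red points are the changed events and dotted lines mark the size threshold of 0.1. ITGA3 and ITGA6 have a changed event below the line in both panels, and the other points sit mostly near 0.

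The cytoplasmic end of ITGA6, the laminin receptor subunit alpha6, moved the most of the members' tested events in each line. Its 130-nucleotide exon lies at chr2:173366500-173366629 (GRCh37, plus strand) and is a coding exon with a stop codon. Inclusion gives the alpha6A end and skipping gives alpha6B, read from the next exon. The coding letters of both ends are shown because the share of the first fell and that of the second rose under emetine. The stop codon is in capitals.
ITGA6 exon included: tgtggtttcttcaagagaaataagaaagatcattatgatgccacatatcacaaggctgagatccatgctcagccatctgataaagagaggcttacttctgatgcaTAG
ITGA6 exon skipped: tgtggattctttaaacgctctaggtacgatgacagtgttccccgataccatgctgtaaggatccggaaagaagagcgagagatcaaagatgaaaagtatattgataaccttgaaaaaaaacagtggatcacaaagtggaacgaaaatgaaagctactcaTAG

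In MCF10A the level of this ITGA6 exon was 0.931 and 0.927 with DMSO and 0.627 and 0.639 with emetine. The groups did not overlap, and fewer reads lay behind the emetine values, 619 and 417 against 2058 and 2193. The mean fell from 0.929 ± 0.00249 to 0.633 ± 0.00827 (SD, n = 2), a change of -0.296 (95% interval -0.343 to -0.25, adjusted p = 5.73e-07, and 0.0175 with limma). In HMLE TWIST the level was 0.728 and 0.816 with DMSO and 0.452 and 0.422 with emetine. Here too the groups were apart, at lower depth (404 to 483 reads with DMSO, 61 and 64 with emetine). The change was -0.335 (95% interval -0.486 to -0.183, adjusted p = 0.0071, and 0.035 with limma). By these levels alpha6B was slightly ahead of alpha6A in emetine-treated HMLE TWIST cells. Before the correction for the number of junctions, inclusion reads were the more numerous there (38 and 38 against 23 and 26). Which form was the more frequent was not tested. These levels are shares. Skipping reads rose from 74 and 83 to 142 and 92 in MCF10A but fell from 76 and 41 to 23 and 26 in HMLE TWIST. Inclusion reads fell in both lines, in HMLE TWIST from 407 and 363 to 38 and 38.

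Without treatment, HMLE TWIST already had less of the alpha6A form than MCF10A. The untreated means were 0.772 ± 0.062 and 0.929 ± 0.00249 (SD, n = 2), a difference of -0.157 (95% interval -0.208 to -0.106, adjusted p = 2.8e-09). That interval and adjusted p rest mostly on the spread shared across events, not on the spread between these libraries. limma gave an adjusted p of 0.149, and without correction for the number of junctions the difference was -0.0925, under the size threshold. Leaving out the first listed HMLE TWIST library, with the spread estimated anew, gave -0.113 with an adjusted p of 0.0652. The difference between the responses of the lines was -0.0384 (95% interval -0.179 to 0.103, adjusted p = 0.363), an interval that also holds sizeable differences in either direction.

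Other ITGA6 exons stayed near the ends of the scale. The 174-nucleotide exon at chr2:173354213-173354386 was at 0.982 to 1 in all 8 libraries and changed by -0.000434 in MCF10A and 0.0106 in HMLE TWIST. The 117-nucleotide exon at chr2:173337502-173337618 reached at most 0.00515, and had no inclusion read among 1543 reads in an untreated MCF10A library, which allows up to 0.194% of reads. A limit of this kind, from a count of 0, covers counting error only.

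ITGA3, the alpha3 subunit of another laminin receptor, has the same kind of alternative cytoplasmic end as ITGA6, and its level stayed near 1. Its 142-nucleotide exon at chr17:48165589-48165730 (plus strand) also holds a stop codon, inclusion giving alpha3A and skipping alpha3B. Its level lay between 0.998 and 1 in all 8 libraries, at 1569 to 5728 reads each. In HMLE TWIST the change was -0.00056 (95% interval -0.00346 to 0.00234, adjusted p = 0.737), and in MCF10A the skipped form was too rare to test. Both ends are printed as the counterpart of the ITGA6 pair, with the stop codon in capitals.
ITGA3 exon included: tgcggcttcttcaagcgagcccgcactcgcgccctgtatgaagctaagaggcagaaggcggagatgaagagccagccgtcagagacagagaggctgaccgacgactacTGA
ITGA3 exon skipped: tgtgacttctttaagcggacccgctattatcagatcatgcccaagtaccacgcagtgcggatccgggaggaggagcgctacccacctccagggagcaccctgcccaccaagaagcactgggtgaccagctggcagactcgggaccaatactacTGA

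A different ITGA3 exon lost inclusion under emetine in both lines. It is a coding exon of 148 nucleotides at chr17:48154338-48154485, in the part of the gene for the extracellular region. The length is not a multiple of 3, and joining its neighbours in the annotated transcript shifts the frame to a stop that ends 106 nucleotides past the exon's site and 1011 nucleotides before the last exon junction. The exon is shown in capitals, with 10 bases of each neighbouring exon, because it is the sequence absent from the form that rose.
ITGA3 148-nucleotide exon: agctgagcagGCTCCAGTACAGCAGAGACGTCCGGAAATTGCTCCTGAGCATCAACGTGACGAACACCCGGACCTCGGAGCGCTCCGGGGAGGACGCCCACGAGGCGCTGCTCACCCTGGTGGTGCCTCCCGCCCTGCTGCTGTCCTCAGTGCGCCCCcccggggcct

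In MCF10A the level of the ITGA3 148-nucleotide exon was 0.984 and 0.975 with DMSO and 0.775 and 0.823 with emetine. In HMLE TWIST it was 0.989 and 0.995 with DMSO and 0.754 and 0.735 with emetine. All DMSO libraries lay above all emetine libraries, with 1326 to 5919 reads behind each value. The means changed by -0.18 in MCF10A (95% interval -0.212 to -0.149, adjusted p = 5.63e-07, limma 0.0168) and by -0.247 in HMLE TWIST (95% interval -0.281 to -0.214, adjusted p = 4.4e-06, limma 0.0113). The untreated lines differed by 0.0128 (adjusted p = 0.00161, limma 0.258), below the size threshold. The difference between the lines' changes was -0.067 (95% interval -0.108 to -0.0258, adjusted p = 0.00214, limma 0.296) and was not called, being below the size threshold.

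The calls on ITGA6 and ITGA3 under emetine share a limit. When either emetine library was left out and the spread estimated anew, no event of the whole table was called, and these exons had adjusted p-values of 0.156 to 0.271. With the spread taken from all libraries, both exons stayed changed in both lines whichever library was left out, with changes of -0.378 to -0.291 for ITGA6 and -0.257 to -0.238 for ITGA3 in HMLE TWIST, and -0.302 to -0.29 and -0.204 to -0.157 in MCF10A.

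Smaller shifts appeared in events of other ITGA3 exons. A 97-nucleotide exon at chr17:48158461-48158557, which the annotation places in a transcript marked for nonsense-mediated decay, was at 0.00309 and 0.00303 with DMSO and 0.0342 and 0.0202 with emetine in MCF10A. In HMLE TWIST it was at 0.000946 and 0.00103 and then 0.0231 and 0.0145. Every emetine library was above every DMSO library, and the changes of 0.0242 and 0.0178 had adjusted p-values of 2.09e-05 and 0.000148 at a size below the threshold. The event of the 197-nucleotide exon that starts at 48149350 went up by 0.0158 in MCF10A and 0.0381 in HMLE TWIST (adjusted p = 0.0387 and 0.00655), also under the threshold. Its inclusion form leaves out the exon at 48148675-48148882, and no annotated transcript matched that form. The event therefore does not give the level of the 197-nucleotide exon.

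ITGB1, the beta1 subunit that pairs with both alpha3 and alpha6, changed little. Its 81-nucleotide exon at chr10:33195991-33196071 (minus strand), which makes the beta1D end known from striated muscle, had a level of 0.000374 to 0.00239 over the 8 libraries at 945 to 3563 reads each. The skipped form, beta1A, was thus nearly the only one. Changes under emetine were 0.000438 in MCF10A (95% interval -0.00106 to 0.00194) and 0.000213 in HMLE TWIST (95% interval -0.00186 to 0.00229). Of the ITGB1 events, 10 were tested in MCF10A and 9 in HMLE TWIST, and none passed both thresholds, while 4 and 3 had an adjusted p under 0.05 at a smaller change. In the event of the 200-nucleotide exon that starts at 33208813, named after its values were seen, the level changed by -0.00811 in MCF10A and -0.00498 in HMLE TWIST under emetine (adjusted p = 0.000298 and 0.00242), far under the size threshold.

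ITGB4, the beta4 subunit that joins alpha6 in hemidesmosomes, could be read only in MCF10A, where 12 of its 27 events were tested. None changed by the size threshold, and 5 had an adjusted p under 0.05. The alternative exons of its cytoplasmic region were almost fixed. The 210-nucleotide exon at chr17:73749846-73750055 was at 0.00687 and 0.00469 with DMSO and 0.0126 and 0.0134 with emetine, a change of 0.00721 (adjusted p = 0.00838). The 159-nucleotide exon at chr17:73751136-73751294 was at 0.00512 and 0.00537 and then 0.00219 and 0.00292 (adjusted p = 0.0556). Both are mostly left out, whereas the 150-nucleotide exon at chr17:73751782-73751931 was mostly kept, at 0.975 to 0.982 in the 4 libraries. In HMLE TWIST that exon had 14 to 26 reads a library and was not tested.

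**Figure D3:**
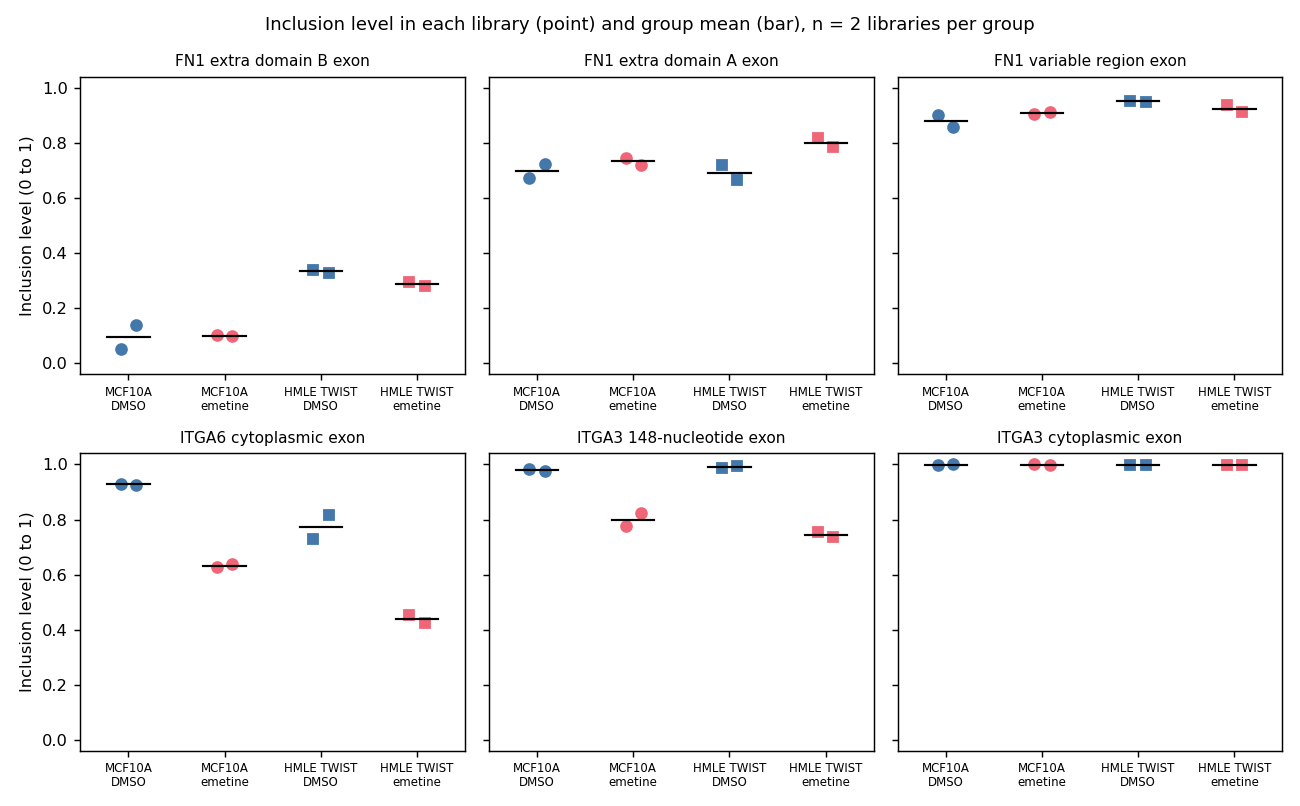
Inclusion level (0 to 1) of 6 alternative exons in each library, as points, with the group mean as a bar and n = 2 libraries per group. The ITGA6 cytoplasmic exon and the ITGA3 148-nucleotide exon are lower with emetine in both lines, the ITGA3 cytoplasmic exon stays near 1, and the FN1 extra domain B exon differs between the lines.

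Fibronectin has 3 alternative regions, and they behaved differently. The extra domain B exon, 273 nucleotides at chr2:216257654-216257926 (minus strand), differed between the lines. The extra domain A exon, 270 nucleotides at chr2:216245534-216245803, changed under emetine in HMLE TWIST. The variable region exon at chr2:216236832-216237098 has 267 nucleotides, and a shorter form of 192 lacks its first 75. All these lengths are multiples of 3, and joining the neighbours of the 267-, 270- and 273-nucleotide exons keeps the annotated stop. The extra domain exons are shown in capitals with 10 bases of each neighbour, and in the variable exon the capitals mark the 75 bases absent from the shorter form.
FN1 extra domain B exon: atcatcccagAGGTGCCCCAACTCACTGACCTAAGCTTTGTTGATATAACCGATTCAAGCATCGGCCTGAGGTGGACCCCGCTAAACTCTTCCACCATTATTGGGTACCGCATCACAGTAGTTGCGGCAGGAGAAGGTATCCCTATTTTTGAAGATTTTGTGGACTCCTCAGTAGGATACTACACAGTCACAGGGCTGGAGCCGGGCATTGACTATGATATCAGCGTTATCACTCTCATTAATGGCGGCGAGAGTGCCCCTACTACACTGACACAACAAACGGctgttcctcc
FN1 extra domain A exon: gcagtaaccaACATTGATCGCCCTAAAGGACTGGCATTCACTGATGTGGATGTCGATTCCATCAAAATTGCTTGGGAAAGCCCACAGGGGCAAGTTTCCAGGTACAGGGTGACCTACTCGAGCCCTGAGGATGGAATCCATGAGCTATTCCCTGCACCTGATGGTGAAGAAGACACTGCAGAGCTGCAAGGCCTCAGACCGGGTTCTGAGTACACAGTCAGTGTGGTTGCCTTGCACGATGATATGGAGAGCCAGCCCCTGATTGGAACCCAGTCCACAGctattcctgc
FN1 variable region exon: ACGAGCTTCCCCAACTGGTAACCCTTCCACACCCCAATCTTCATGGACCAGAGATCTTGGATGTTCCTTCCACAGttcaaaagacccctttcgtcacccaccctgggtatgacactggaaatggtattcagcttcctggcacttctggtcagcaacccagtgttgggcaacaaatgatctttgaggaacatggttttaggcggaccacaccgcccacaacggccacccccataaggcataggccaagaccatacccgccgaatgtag

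Extra domain B was rare in untreated MCF10A, at 0.0533 and 0.138 (168 and 153 reads), and more frequent in untreated HMLE TWIST, at 0.337 and 0.33 (50712 and 48343 reads). Both HMLE TWIST libraries were above both MCF10A libraries. The means of 0.0954 ± 0.0596 and 0.334 ± 0.00552 (SD, n = 2) differed by 0.238 (95% interval 0.203 to 0.274, adjusted p = 4.93e-12). This interval and adjusted p rest mostly on the spread shared across events. They hardly reflect the spread between the 2 MCF10A libraries. limma, which estimates the spread on the log odds scale, gave an adjusted p of 0.16. Emetine left the level at 0.103 and 0.0977 in MCF10A, a change of 0.0047 (95% interval -0.0603 to 0.0697). In HMLE TWIST the level was 0.294 and 0.279 with emetine, a change of -0.0471 (95% interval -0.0574 to -0.0368, adjusted p = 0.000181, limma 0.593), under the size threshold. The difference of the responses was -0.0518 (95% interval -0.116 to 0.0124, adjusted p = 0.729).

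Extra domain A was the main form in both lines. In HMLE TWIST its level was 0.721 and 0.665 with DMSO and 0.817 and 0.786 with emetine, at 41448 to 60243 reads each. The groups did not overlap, and the mean rose by 0.108 (95% interval 0.071 to 0.145, adjusted p = 0.00166). limma gave an adjusted p of 0.213. This call sits just past the size threshold: it was 0.0801 without the second listed DMSO library, 0.0923 without the first listed emetine library and 0.071 without the correction for the number of junctions, all under 0.1. In MCF10A the level was 0.672 and 0.724 with DMSO and 0.748 and 0.719 with emetine, at 187 to 231 reads, and these groups overlapped (change 0.0354, 95% interval -0.0648 to 0.136, adjusted p = 0.609). The tables list this exon with different outer ends of a neighbouring exon, so the lines were compared by splice sites, a match chosen after seeing the data. So matched, the untreated lines differed by -0.00462 (95% interval -0.118 to 0.109, adjusted p = 0.971) and the responses by 0.0726 (95% interval -0.186 to 0.331, adjusted p = 0.815).

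The variable region was mostly kept. Its 267-nucleotide event was at 0.903 and 0.859 in untreated MCF10A and at 0.954 and 0.951 in untreated HMLE TWIST, which did not overlap. The difference of 0.0713 (95% interval 0.0217 to 0.121, adjusted p = 0.00572, limma 0.192) was under the size threshold. Under emetine the level was 0.938 and 0.913 in HMLE TWIST, a change of -0.027 (adjusted p = 0.00829, limma 0.309), and in MCF10A the change was 0.029 (adjusted p = 0.503).

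The listed event of the 192-nucleotide form does not measure that form alone. It shares its skipping junction and a junction of its inclusion side with the 267-nucleotide event. In HMLE TWIST the single junctions could be solved from events that share them. In the first listed DMSO library 38575 of the 41019 inclusion reads of the 192-nucleotide event lay on the shared junction and 2444 on the junction of the short form, against 37621 on that of the long form. An annotated exon of 467 nucleotides, at chr2:216236632-216237098, uses that junction of the long form too, and its reads cannot be separated there. The short form's junction had 6.1% and 6.2% of the reads of both junctions with DMSO, and 6.73% and 7.61% with emetine, values that were not tested.

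With that limit, the 192-nucleotide event was at 0.845 and 0.751 in untreated MCF10A and at 0.918 and 0.911 in untreated HMLE TWIST. It was called, with a difference of 0.116 (95% interval 0.0377 to 0.194, adjusted p = 0.0084), but had an adjusted p of 0.212 with limma and 0.102 when all 8 libraries were fitted at once. The difference was 0.0681 without the correction for the number of junctions, and 0.0694 (adjusted p = 0.318) without the second listed MCF10A library, with the spread taken from all libraries. Under emetine it changed by -0.0448 in HMLE TWIST (adjusted p = 0.00871, limma 0.314) and by 0.0424 in MCF10A (adjusted p = 0.589). The other 17 of the 21 FN1 events tested in HMLE TWIST moved by less than 0.02.

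Between the untreated lines, 19 member events were tested and 3 differed: the extra domain B exon and the 192-nucleotide variable region event of FN1, higher in HMLE TWIST, and the ITGA6 cytoplasmic exon, lower there. This is 15.8% of the members, against a background of 6.48% of all tested events, 2.15% higher and 4.33% lower. With limma none of the 19 differed, against 36 events, or 0.187%, of the whole comparison, and 6 of the 19 had an unadjusted p under 0.05, as had 4070 of all 19301 events. With no size threshold, 9 of the 19 had an adjusted p under 0.05, against 15.6%. For the difference of responses, 19 member events were tested and none passed both thresholds with either model, against a background of 2.81%, 0.904% with a difference above 0 and 1.90% below 0. At an unadjusted p under 0.05, 2 of the 19 passed with either model, as did 3116 of all 19025 events with the quasi-binomial model. limma called none of all 19025 events in this comparison, where 2826 had an unadjusted p under 0.05. The ITGA3 148-nucleotide exon was the only member of the 19 with an adjusted p under 0.05, against 4.67% of all tested events.

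Tenascin-C carries a block of alternative fibronectin type III repeats, each mostly encoded by its own exon of 273 or 276 nucleotides. In the 7 repeat exons described, ordered from the 5′ end (the gene is on the minus strand of chromosome 9), most were kept. The exons at chr9:117822009-117822281 and chr9:117825196-117825468 lay between 0.989 and 1 and between 0.92 and 1. The exon at chr9:117815019-117815294 was almost always skipped, at most 0.0602, with no inclusion read among 26 and 27 reads in untreated MCF10A, which allows 11.5% and 11.1% of reads. The exon at chr9:117810539-117810811 was the intermediate one and is shown, in capitals with 10 bases of each neighbour, because its level spread most among the libraries.
TNC 273-nucleotide repeat exon: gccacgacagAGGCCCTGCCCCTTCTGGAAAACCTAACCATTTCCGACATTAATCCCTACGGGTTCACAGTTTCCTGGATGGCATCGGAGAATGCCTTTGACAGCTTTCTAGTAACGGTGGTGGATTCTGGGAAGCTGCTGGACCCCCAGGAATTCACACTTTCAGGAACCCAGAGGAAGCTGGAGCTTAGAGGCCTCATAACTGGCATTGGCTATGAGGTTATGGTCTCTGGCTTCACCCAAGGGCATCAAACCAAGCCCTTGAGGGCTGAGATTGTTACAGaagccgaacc

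That TNC exon was at 0.037 and 0.129 in untreated MCF10A, on 28 and 35 reads, and at 0.245 and 0.194 with emetine, on 1631 and 1364 reads. The groups did not overlap, and the change of 0.136 (95% interval 0.0325 to 0.24) had an adjusted p of 0.131, so it was not called. The authors' deposited table gives it an FDR of 0.00284. Without the second listed emetine library, with the spread taken from all libraries, the change was 0.162 with an adjusted p of 0.0429. In HMLE TWIST the level was 0.271 and 0.182 with DMSO and 0.244 and 0.252 with emetine, which overlap (change 0.0214, 95% interval -0.0637 to 0.106). The untreated lines differed by 0.143 (95% interval 0.0476 to 0.239, adjusted p = 0.0941) and the responses by -0.115 (95% interval -0.236 to 0.00582, adjusted p = 0.373).

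The TNC event that was called in MCF10A lists the 273-nucleotide exon at chr9:117819432-117819704, but it does not give the level of that exon. Its outer flank is the exon at chr9:117835882-117836145. The skipping junction therefore also leaves out the exons at 117822009, 117825196, 117826075 and 117826926, and those at 117810539 and 117815019. No annotated transcript matched the event's inclusion form. The event had 26 and 27 inclusion reads with DMSO, as many as the skipping junction of the 117810539 exon, and 2 and 4 skipping reads. With emetine it had 995 and 924 inclusion and 2 and 7 skipping reads. The event's value was 0.867 and 0.771 with DMSO and 0.996 and 0.985 with emetine, a change of 0.171 (adjusted p = 0.0142, limma 0.0216) whose 95% interval, -0.0123 to 0.355, includes 0. Leaving out the second listed DMSO library gave 0.124 with an adjusted p of 0.174, and the change was 0.0955 without the correction for the number of junctions. Between its adjacent exons the same exon had 52 and 61 inclusion reads against 2 and 0 skipping reads with DMSO, and 2019 and 1773 against 2 and 2 with emetine, too few of the rarer form to test. The 33-fold difference in TNC reads between the MCF10A groups goes with these MCF10A values, and its part in them was not tested.

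The last of these exons in the transcript, at chr9:117808689-117808961, was measured against a junction that also passes over the exons at 117810539 and 117815019. In HMLE TWIST its level was 0.879 and 0.935 with DMSO and 1 and 0.992 with emetine, a change of 0.0887 (95% interval 0.0321 to 0.145, adjusted p = 0.0167, limma 0.0253), just under the size threshold. It was 0.117 without the second listed DMSO library (adjusted p = 0.0267).

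**Figure D4:**
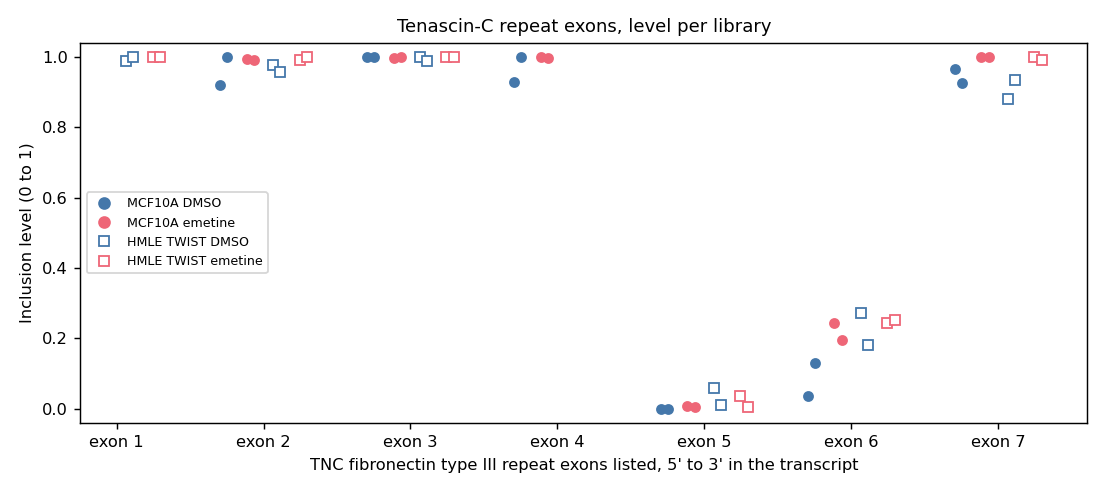
Inclusion level (0 to 1) of the TNC repeat exons in each library, in transcript order, with circles for MCF10A, squares for HMLE TWIST, blue for DMSO and red for emetine. Exon 5 is near 0, exon 6 is intermediate (0.037 to 0.271), and the other exons are mostly above 0.9. Exon 4 is shown between its adjacent exons, an event listed for MCF10A.

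COL6A3 and FBLN2 could not be tested in either line. COL6A3, which codes for a chain with alternative von Willebrand factor A modules, had 4 listed events and at most 60 reads in a library. Its 603-nucleotide exon at chr2:238296225-238296827 was at 0.291 and 0.312 in untreated HMLE TWIST, on 51 and 42 reads, and at 0.818 in the emetine library that had any reads, which had 10. FBLN2, a basement membrane and elastic fibre protein, had 4 events in HMLE TWIST only, with at most 103 reads. Its 141-nucleotide exon at chr3:13663275-13663415 was mostly skipped, at 0.0746 and 0.037 with DMSO and 0.0769 and 0 with emetine (36, 42, 21 and 16 reads, where 0 of 16 allows 18.8%).

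In a further list of 53 genes of integrin adhesion and matrix, 209 events of 39 genes were tested in MCF10A and 12 changed under emetine, 5 higher and 7 lower. In HMLE TWIST 224 events of 38 genes were tested and 24 changed, 6 higher and 18 lower. These are 5.74% and 10.7%, beside the backgrounds of 13.0% and 14.0%. The largest changes in MCF10A were a 173-nucleotide exon of DDR1, a collagen receptor kinase (0.686 and 0.79 with DMSO, 0.276 and 0.273 with emetine), a 56-nucleotide DDR1 exon and a long exon of PLEC, the plectin linker of hemidesmosomes, with changes of -0.464, -0.29 and -0.248. In HMLE TWIST they were an 18-nucleotide exon of DST (dystonin; 0.921 and 0.927, then 0.269 and 0.393), a 132-nucleotide exon of LTBP4, a latent TGF-beta binding protein, and the same PLEC exon, with changes of -0.593, 0.306 and -0.303. Adjusted p-values of these 6 ranged from 4.47e-06 to 0.00221. Of the other comparisons, 10 of 133 events differed between the untreated lines (7.52%, beside 6.48% of all tested events) and 1 of 126, in PTK2, in the response (0.794%, beside 2.81%).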

How the data were processed

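The deposited rMATS tables of skipped exons, a separate one for each line, were the only data used. Reads were aligned with STAR 2.5.3a to GRCh37, per the submitters' processing notes; the rMATS version and annotation are not given in the sources used here. Libraries were stranded, paired-end and made from polyadenylated RNA, per the labels' protocols. Per the file headers, the authors deposited junction counts, inclusion levels, a p-value and FDR, and a difference score for each event, with the 2 replicates of a group in a cell and no replicate number. Levels recomputed from the counts matched the deposited ones within 0.0005.

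Here each event was fitted with a quasi-binomial logistic model of inclusion and skipping counts in R 4.3.3, with dispersions moderated across events by limma 3.58.1 (squeezeVar) and floored at 1. Two-sided moderated F tests were adjusted over all events of the fit by Benjamini-Hochberg. Lines were compared over the 56675 events listed in both tables. limma on log2 odds with 0.5 added was the main alternative; others changed the read minimums, length correction, size threshold, dispersion or libraries. Intervals of differences are 95% and come from the model. With 2 libraries a group they rest on the shared spread, most of all between the untreated lines, where its prior degrees of freedom were 103. The code was tested on simulated counts in which every event had the same spread, a simpler case than the real data.

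Exon letters come from GENCODE 29 transcripts, matched by exon and intron lengths within the gene (106 of 163 events matched); positions are GRCh37 as deposited. Members and lists were chosen with earlier results of these data known. The exons described were the known alternative exons, each exon with a changed event, and otherwise the exon with the most reads of a gene; the 3 largest changes per line were named in the wider gene list. Additional smaller shifts were named after their values were seen.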

Additional observations from a re-analysis of the deposited data

Results flagged for a closer look

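The ITGA3 148-nucleotide exon had an adjusted p under 0.05 in the test of the difference between the lines' responses, at a size under the threshold of 0.1, so it was not called. Inclusion fell under emetine by 0.18 in MCF10A and by 0.247 in HMLE TWIST, and the test of the difference itself gave -0.067 (95% interval -0.108 to -0.0258, adjusted p = 0.00214 in the quasi-binomial model). The adjusted p was 0.296 with limma, 0.0856 with the event's own dispersion where that was larger, and 0.000813 to 0.0667 when each library was left out with the spread taken from all libraries. The values of the difference then ran from -0.0907 to -0.0432.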

How the results depend on the processing

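No paired analysis was possible because the values in a cell carry no replicate number. Over the single exons described, 734 values under the alternatives stayed on the same side of the thresholds, 31 of them (values not called) with the sign turned. Another 40 no longer passed, 4 newly passed, and no called value turned its sign. The 734 include values not called in the main fit. Among them are all those for the difference of responses, 136 with a library left out and 70 otherwise. All 40 came from the called exons, 3 in each line under emetine and 3 between the untreated lines. Between the untreated lines, 6 were lost with a library left out and 13 under other alternatives. With limma (0.5 added) the changed events numbered 2012 in place of 3329 in MCF10A. Between the untreated lines, limma gave 36 with 0.5 added and 95 with 1 added, in place of 1250, with 0 members in place of 3; for the difference of responses it gave 0 in place of 534 at either value. A size threshold of 0.2 left 1539 events and 1 member in MCF10A, 592 events and 1 member between untreated lines and 264 events for the responses. In HMLE TWIST it left 1990 events, the ITGA6 cytoplasmic exon (change -0.335) and the ITGA3 148-nucleotide exon (-0.247) among them. With no minimum for the rarer form, 0 events and 0 members differed between untreated lines, where the prior degrees of freedom of the dispersion were 0.537 in place of 103. Without length correction 1 member differed there. The event's own dispersion left 349 response differences.

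With each library left out in turn and the spread estimated anew, counts ran from 0 to 2756 in MCF10A (members 0 to 3), 0 to 3237 in HMLE TWIST (members 0 to 3), 416 to 823 between untreated lines (members 1 to 2) and 316 to 523 for the responses. The counts of 0 in the emetine comparisons came without an emetine library. With the spread taken from all libraries, an alternative chosen after seeing the data, they ran from 2718 to 3086 (members 2 to 3), 3173 to 3838 (members 2 to 3), 980 to 1095 (members 2 to 3) and 343 to 504 (members 0). Depth limits TNC in untreated MCF10A, ITGB4 in HMLE TWIST, COL6A3 and FBLN2.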
